A study of Mus musculus with 36 samples.

Results

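The 2 TET-deficient mouse lines of this RNA-seq experiment, clone h7 and clone c2, were compared with each other as embryonic stem cells (ESCs) and as neural stem cells (NSCs) derived from them. The comparison used 4 of the 10 RNA-seq libraries, among 36 samples of the series: h7 and c2 ESCs and h7 and c2 NSCs, with 1 library per clone and cell type. The other 6 libraries, from 3 wildtype (WT) lines in each cell type, gave the spread between cultures that carry no knockout. The genes compared were those with a mean normalized read count of at least 50 over the 5 libraries of each cell type, 12077 of the 15381 genes listed for both.

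All lines were male V6.5 cells, from a cross of the 129 and C57BL/6 strains, and the label of both clones is a triple knockout of Tet1, Tet2 and Tet3. The codes c2 and h7 come from the column names of the tables. ESCs were preplated for 45 minutes to take out feeder cells and were kept on gelatin with serum and LIF for 24 hours. NSCs were collected on day 6 of culture, at passage 1. Each clone is 1 line, so what h7 and c2 share or do not share describes these 2 lines and not the knockout in general. Recovered library sizes lay between 41.01 M and 49.06 M reads.

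TET1, TET2 and TET3 are dioxygenases that oxidise 5-methylcytosine, a step by which methyl groups are removed from DNA. Cells without them can keep methylation at promoters, enhancers and imprinted regions, where the alleles of the mother and the father carry different marks. Lines grown from single cells can also come to differ from each other in methylation, in chromosome content and in how they differentiate.

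The Tet transcripts, given first as a check of the labels, lay close together in the clones. Tet1 in ESCs was 12237, 10599 and 9634 normalized counts in WT, 4635 in c2 and 4966 in h7, and in NSCs 663, 717 and 901 in WT, 517 in c2 and 574 in h7. Tet2 stood at 1700.3 in c2 and 1661 in h7 ESCs, against 2156 to 2893 in WT, and at 1146 and 1555 in NSCs, against 1066 to 1295 in WT. Tet3 stood at 203 and 151 in ESCs, against 332 to 487 in WT, and at 2379 and 2597 in NSCs, against 4049.9 to 4208 in WT. All 3 genes were below WT in both clones except Tet2 in NSCs, where c2 lay within and h7 above the WT range. The counts cover whole transcripts, so they do not test the deleted parts. None of the 3 passed the test between clones, with differences of h7 minus c2 of 0.12, 0.20 and -0.15 on the log2 scale and limma adjusted p of 0.89, 0.815 and 0.901.

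Markers of the labelled cell types were present in both clones. Pou5f1, the core pluripotency factor, was 65567 in c2 and 54682 in h7 ESCs, against 45520.4 to 60415 in WT. The neural intermediate filament gene Nes was 26799 in c2 and 31666 in h7 NSCs, below its WT range of 58916 to 66722. Sox1, a neural progenitor factor, stood at 1892 and 2080.4 against 6912 to 9469 in WT NSCs. Pax6, another such factor, stood apart: WT NSCs had 2825, 2575 and 2840.0, c2 had 234 and h7 had 78.1. Both knockout NSC lines thus had less Nes and Sox1 than every WT line, and far less Pax6.

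Over both cell types together, 3 of 12077 genes (0.0248%) differed between the clones at an adjusted p under 0.05. All 3 were lower in h7, among them Grb10 and Bcat1. The test was limma on log2(normalized count + 1) with 1 common difference of h7 minus c2 for the 2 cell types, Benjamini-Hochberg adjusted over all genes, and the WT libraries gave most of the spread. No gene was higher in h7 by limma, while 432 genes were higher and 520 lower at an unadjusted p under 0.05. On the recovered reads, edgeR called 4 genes, 1 of them higher, and DESeq2 called 81, 14 of them higher. The 95% interval of the difference lay within 2-fold in either direction for 10874 genes (90.0%), with a median half-width of 0.29 on the log2 scale. With 1 library left out the number of calls ran from 2 to 37. It was 7 without WT ESC replicate 1, 17 and 18 without the ESC library of c2 or h7, and 37 and 35 without their NSC libraries, when 1 cell type alone gives the difference and its lone libraries are assumed to vary like WT.

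The promoters of Grb10 and Bcat1, genes called between the clones, are shown from the RefSeq table (build GRCm38.p6), each with 2 annotated starts. Each window runs 5′ to 3′ on the minus strand, from 250 bases before to 50 after the start, and capitals mark CG dinucleotides, the sites at which TET enzymes act on methylated cytosine. The upstream start of Grb10 (chr11:12037371-12037670) lies in a window with 45 CG, a number that 1.93% of all 32851 promoters reach. Its other start (chr11:12027922-12028221) has 9 CG, reached by 45.8%. Bcat1 has 6 CG at its upstream start (chr6:145076108-145076407), reached by 56.4%, and 16 at the other (chr6:145048763-145049062), reached by 33% of all promoters, whose median is 7. Methylation at these windows was not analysed here.
Grb10 upstream start: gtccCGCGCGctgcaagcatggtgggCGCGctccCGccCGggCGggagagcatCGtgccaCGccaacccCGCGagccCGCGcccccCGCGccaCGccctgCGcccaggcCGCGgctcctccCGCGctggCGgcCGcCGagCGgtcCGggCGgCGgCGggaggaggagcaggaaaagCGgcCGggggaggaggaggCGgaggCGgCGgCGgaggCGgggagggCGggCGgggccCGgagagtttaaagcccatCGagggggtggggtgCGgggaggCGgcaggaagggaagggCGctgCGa
Grb10 downstream start: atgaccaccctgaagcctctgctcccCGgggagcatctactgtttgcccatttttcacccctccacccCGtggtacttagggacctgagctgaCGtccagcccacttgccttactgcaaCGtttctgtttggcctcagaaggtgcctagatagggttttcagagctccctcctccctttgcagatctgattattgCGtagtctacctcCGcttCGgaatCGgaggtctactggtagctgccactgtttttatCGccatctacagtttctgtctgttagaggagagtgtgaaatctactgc
Bcat1 upstream start: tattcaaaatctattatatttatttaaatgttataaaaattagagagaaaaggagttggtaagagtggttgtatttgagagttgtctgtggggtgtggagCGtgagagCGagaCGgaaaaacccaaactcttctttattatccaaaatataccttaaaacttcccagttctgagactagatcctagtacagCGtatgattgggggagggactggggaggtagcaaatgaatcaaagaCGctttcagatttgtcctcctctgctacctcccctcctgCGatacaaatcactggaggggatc
Bcat1 downstream start: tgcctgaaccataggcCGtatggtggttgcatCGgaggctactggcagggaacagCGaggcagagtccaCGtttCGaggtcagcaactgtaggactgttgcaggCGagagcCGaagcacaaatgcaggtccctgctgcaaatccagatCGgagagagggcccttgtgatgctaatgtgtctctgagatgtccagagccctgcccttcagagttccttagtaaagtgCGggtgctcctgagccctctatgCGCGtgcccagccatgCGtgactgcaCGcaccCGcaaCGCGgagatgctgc

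Grb10 encodes an adaptor protein that restrains insulin and growth factor signalling, from an imprinted gene (chr11:11930499-12037428, mm10). Its normalized counts in ESCs were 7909, 6624 and 6918 in WT, 3103 in c2 and 949.5 in h7, and in NSCs 19451, 21468 and 18146 in WT, 5695 in c2 and 504 in h7. Both clones were below every WT library in both cell types, and h7 was the lowest of the 5 each time. The difference of h7 minus c2 was -1.71 in ESCs and -3.49 in NSCs, with a common value of -2.60 (SE 0.25, limma adjusted p = 0.000682). The call was lost under a robust variance fit (adjusted p = 0.11) and held in the other 20 of 21 alternatives.

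Bcat1 (chr6:144993835-145076157), the cytosolic branched-chain aminotransferase, had 12899, 13204 and 13185 normalized counts in WT ESCs, 19750.3 in c2 and 13778 in h7. In NSCs it had 4461, 3795 and 4213 in WT, 4778 in c2 and 2779 in h7. In both cell types c2 stood above every WT library, and h7 was above them in ESCs and below them in NSCs. The common difference was -0.65 (SE 0.09, limma adjusted p = 0.014). With chromosomes centred the difference was -0.60 and the adjusted p 0.0507. The call was also lost with either clone's NSC library left out, with adjusted p of up to 0.0717 over its 21 alternatives.

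**Figure D1:**
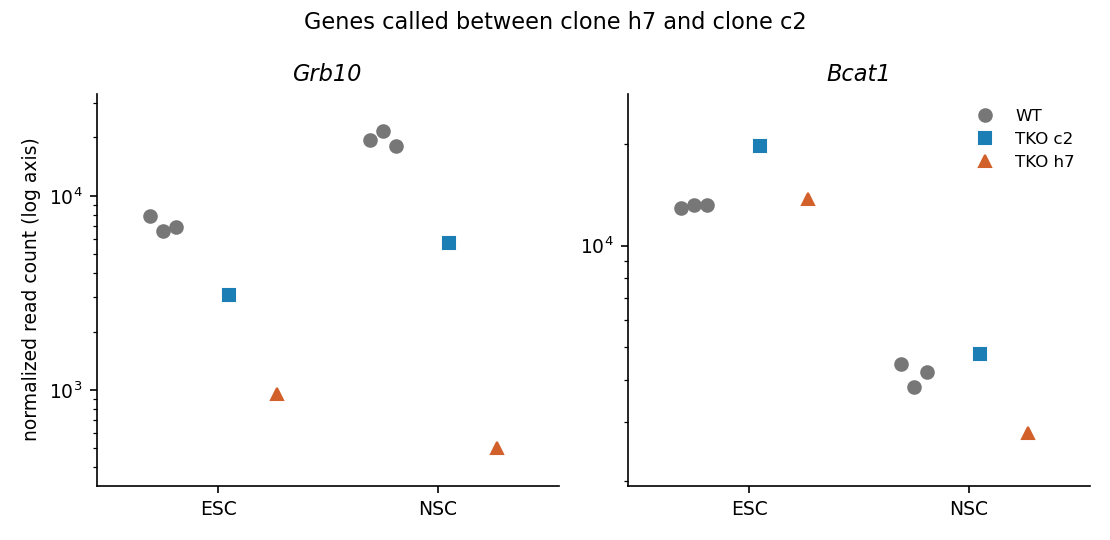
Normalized read counts (log axis) of Grb10 and Bcat1 in every library, with 3 WT libraries and 1 library per clone in each cell type. Clone h7 lies below clone c2 for both genes in both cell types, and for Grb10 both clones lie below all WT libraries.

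Just past the threshold, 4 genes had an adjusted p of 0.0514: Acta2, Tpm2, Ptn and Adgrv1. They are named here after their values were seen. Acta2, smooth muscle actin, stood at 1448 in c2 and 765 in h7 ESCs (WT 1123 to 1435) and at 10756 and 6753 in NSCs (WT 77747 to 104367). Tpm2, a tropomyosin, stood at 1868 and 1000.5 in ESCs (WT 1513 to 1775) and 6349.6 and 4208 in NSCs (WT 5371 to 6910.1). Ptn, the growth factor pleiotrophin, differed by -0.83 and Adgrv1, an adhesion receptor, by 0.67. With the WT line as a block over the 2 cell types, limma called Acta2 (adjusted p = 0.00493) and Ptn (adjusted p = 0.0147).

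The differences between the clones in ESCs and in NSCs were then set beside each other. Across the 12077 genes, the ESC and NSC differences had a Pearson r of 0.058 and a Spearman rho of 0.053, against -0.057, -0.064 and 0.033 for the Pearson r of the 3 pairs of WT lines. These are descriptions across genes, which are not independent replicates. At least 2-fold differences in the same direction in both cell types were found in 9 genes for the clones and in 7, 5 and 7 for the WT pairs. Of the 9 genes, 8 were lower in h7, and 7 had a mean of 50 to under 200 in both cell types. In opposite directions there were 5 such genes for the clones and 10, 2 and 2 for the WT pairs.

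**Figure D2:**
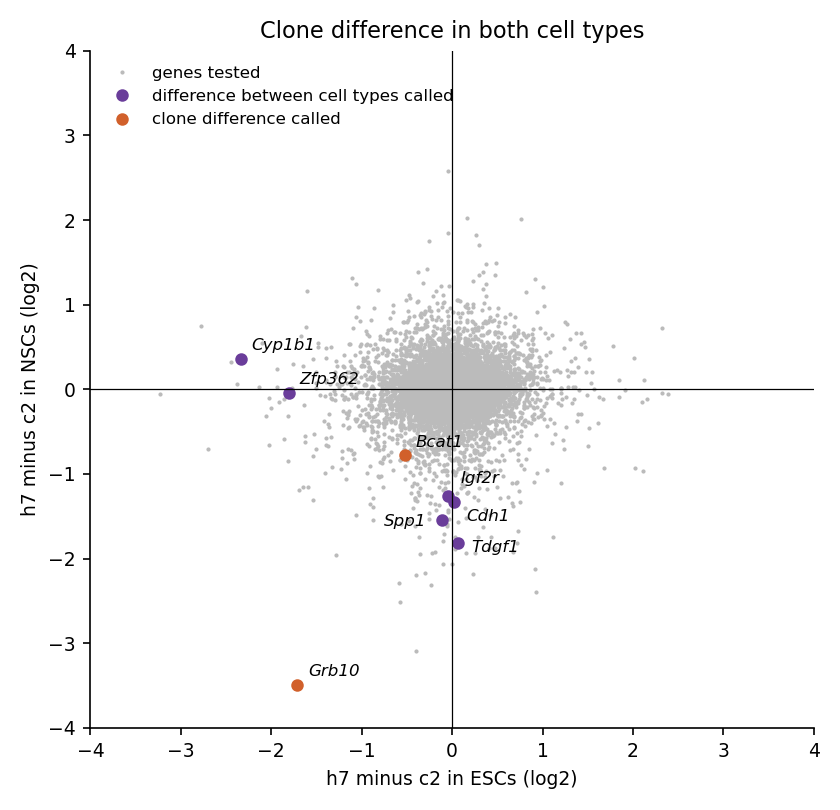
Log2 difference of h7 minus c2 in ESCs (horizontal) and NSCs (vertical) for the 12077 genes. Grb10 and Bcat1, called between the clones and drawn in orange, lie in the lower left, Grb10 at -1.71 and -3.49. The genes in purple, with Grb10 a seventh, are those whose difference was called different between the cell types, with each clone's library assumed to vary like the WT libraries.

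A test of the NSC difference minus the ESC difference rested on 1 library per clone and cell type. The spread came from the WT libraries alone, and the clones' libraries were assumed to vary like them. Under that assumption it called 7 of 12077 genes (0.058%), 5 with a lower and 2 with a higher value in NSCs. With the WT line as a block it called 4 genes, 3 of them among the 7. Tdgf1 (Cripto), the co-receptor of Nodal, was alike in the ESCs, with 31533 in c2 and 33123 in h7 (WT 26236 to 27708). In NSCs it stood at 914 in c2 and 258 in h7, against 139.5, 154 and 149.6 in WT, so that the residual level was higher in c2. The difference of differences was -1.89 (SE 0.18, limma adjusted p = 0.000881). Grb10 was the second gene (-1.79, adjusted p = 0.00275), and these 2 genes were called in all 16 alternatives. The number of calls was 43 without WT ESC replicate 1, 11 without replicate 2, and 4, 4 and 3 without WT NSC replicates 1, 2 and 3.

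3 other genes were at like levels in the 2 ESC libraries and lower in h7 NSCs. Spp1, the matrix protein osteopontin, stood at 23551 in c2 and 8079.6 in h7 NSCs against 4542, 5063 and 3855 in WT (-1.43, limma adjusted p = 0.027). Cdh1, epithelial cadherin, stood at 4667 and 1852 against 305, 369 and 355 (-1.35, adjusted p = 0.0404). Igf2r, the imprinted receptor that clears insulin-like growth factor 2, stood at 29303 and 12197 against 9522, 10029 and 8793 (-1.22, adjusted p = 0.0404). Both clones were above every WT NSC library for these 3 genes, c2 by more. With the WT line as a block the limma adjusted p was 0.0702 for Cdh1 and 0.0647 for Igf2r, and the call of Spp1 held.

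2 genes differed in ESCs and hardly in NSCs. Zfp362, a zinc finger gene, had 123 in c2 and 34.6 in h7 ESCs against 216, 224 and 205 in WT, and 5541 and 5378 in NSCs (1.75, limma adjusted p = 0.0404). Cyp1b1, a cytochrome P450, had 218 in c2 and 42.3 in h7 ESCs against 129.7, 102 and 147 in WT, and 1565 and 2005 in NSCs (2.70, adjusted p = 0.0459). With the WT line as a block the limma adjusted p was 0.0688 for Zfp362 and 0.0724 for Cyp1b1. The calls of Spp1, Zfp362, Cdh1, Igf2r and Cyp1b1 were lost in 4, 6, 6, 8 and 7 of 16 alternatives, and the fits without a WT library were among them for each: without WT NSC replicate 1 for Spp1, Zfp362, Igf2r and Cyp1b1, without WT NSC replicate 2 or 3 for Zfp362, Cdh1, Igf2r and Cyp1b1, and without WT ESC replicate 3 for Spp1, Cdh1 and Igf2r. The highest adjusted p of these 5 genes over their alternatives was 0.119.

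Within each cell type, where 1 library per clone gives no spread of its own, no test was made, and at least 2-fold differences were set beside those of WT pairs. In ESCs, h7 and c2 were at least 2-fold apart in 356 of 13026 genes (2.73%), against 341, 287 and 230 in the WT pairs. In NSCs it was 444 of 14126 genes (3.14%), against 262, 206 and 292. At a mean of 1000 or more the ESC clones had 1 such gene, Grb10, and the WT pairs had 2, 1 and 1. The NSC clones had 25 there and the WT pairs had 1, 3 and 1. At a mean of 200 to under 1000, the numbers were 44 against 24, 16 and 6 in ESCs and 97 against 16, 14 and 24 in NSCs.

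**Figure D3:**
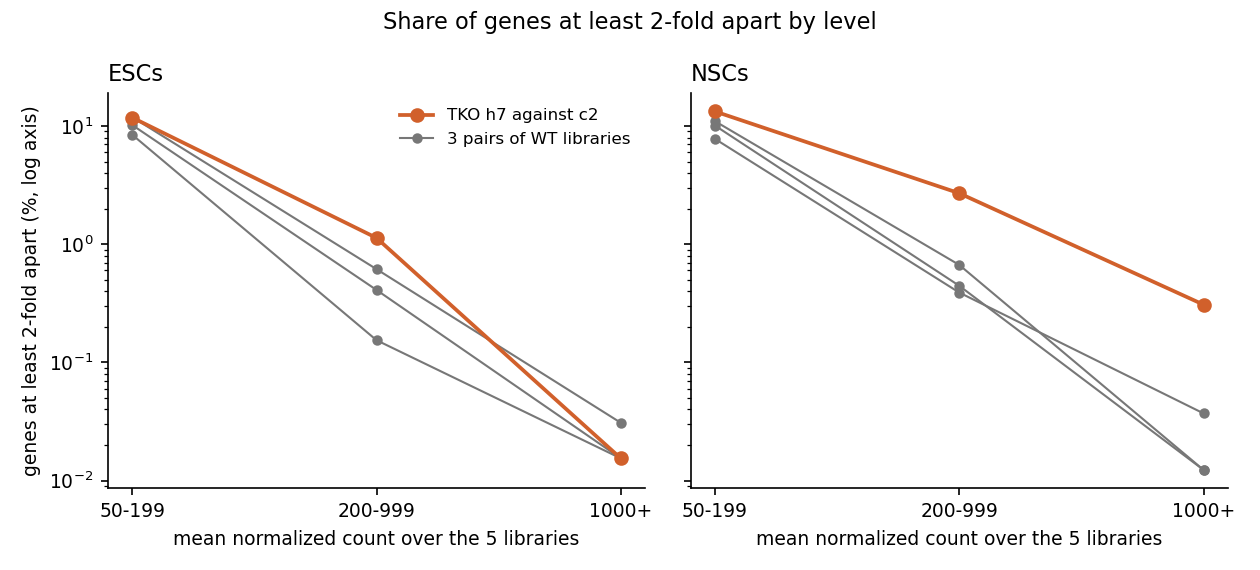
Share of genes at least 2-fold apart (log axis) by mean level, for h7 against c2 and for the 3 pairs of WT libraries. Below a mean of 200 the clones stand at 11.8% in ESCs (WT pairs 8.44% to 11.9%) and 13.3% in NSCs (7.79% to 11%), and at 1000 or more in NSCs they stand at 0.308% against 0.0123% to 0.037%.

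Of the 25 NSC genes, 15 were lower and 10 higher in h7. The lower ones included, beside Grb10, Spp1, Cdh1 and Igf2r, H19, the imprinted noncoding RNA, with 546, 580.3 and 313 in WT, 34432 in c2 and 14479 in h7. Six2, a homeobox factor of mesenchyme and kidney progenitors, stood at 256, 254 and 223 in WT, 4475 in c2 and 2013 in h7. The kelch gene Klhdc8a (2839 in c2, 846 in h7), the calcium-binding S100a6 (7974 and 3213), the lipase inhibitor Angptl4 (3417 and 1553), the matrix genes Col6a3 (3399.8 and 1564) and Postn (5209.9 and 2418) and the activin subunit Inhbb (2665 and 1293) were also lower in h7. For H19, Six2 and Angptl4 both clones lay far above WT, and c2 lay the farther from it.

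4 of the 15 were more than 2-fold below every WT library in both clones. Fgf15, a fibroblast growth factor, had 4159, 3273 and 6129.7 in WT NSCs, 866 in c2 and 360.1 in h7. Shisal1 had 2803, 2152 and 2662 in WT, 538 in c2 and 234 in h7. Pax6 and Grb10, given above, were the others.

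The 10 genes higher in h7 NSCs included several that mark the floor plate, the ventral midline of the neural tube that patterns it by secreted signals. They were grouped so after their values were seen. Shh, the ventral morphogen, had 6949.5, 9249 and 8348 in WT, 3646 in c2 and 7449 in h7, so that h7 lay within the WT range and c2 below it. The guidance cue Ntn1 (netrin) had 17019.9, 23032 and 21202 in WT, 15516 in c2 and 36637 in h7. The floor plate matrix gene Spon1 had 2617, 3946 and 3793 in WT, 2752 in c2 and 5680.1 in h7. Nkx2-2, a ventral progenitor factor, had 1014, 1526 and 1613 in WT, 344 in c2 and 954 in h7.

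Slit1, a midline guidance ligand, and Fgfr3, a receptor of neural progenitors, followed the same order. Slit1 stood at 429 in c2 and 1246 in h7 NSCs, with 1217 to 1566 in WT, and Fgfr3 at 591 and 1451, with 929.5 to 1358 in WT. Rfx4, an RFX transcription factor, stood at 305 and 798, below its WT range of 1694 to 2408. The others were Vtn (716 and 1546, WT 3273 to 4456), Ecrg4 (68 and 223, WT 1951 to 2742) and Rassf4 (557 and 1121, WT 916 to 1385). For Vtn and Ecrg4 both clones lay below every WT library. Ventral factors were also looked up singly, chosen after values were seen, and they did not all have the same order. Higher in h7, short of 2-fold, were Foxa2 with 972 in c2 and 1896 in h7 (WT 894 to 1174), Foxa1 with 2385 and 4472 (WT 2454 to 3629) and Nkx6-1 with 1229 and 2163 (WT 626 to 930.5). These 3 were above all WT libraries in h7. Olig2, a factor of ventral progenitors, was 2-fold lower in h7, with 814, 1115 and 1464 in WT, 45.9 in c2 and 17.6 in h7 (-1.34). Nkx6-2, another, was at 27.6 in c2 and 29.3 in h7, against 113 to 283 in WT. Of these genes Ntn1, Spon1, Fgfr3, Rassf4, Foxa2 and Olig2 were tested over both cell types, and none passed. Ntn1 had the lowest limma adjusted p, 0.106, and Olig2 had a common difference of -0.79 (limma adjusted p = 0.5).

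Gene lists were then read for their counts and medians, beside the same over all genes, where the median difference of h7 minus c2 was 0.0049 in ESCs and 0.00089 in NSCs. h7 was below c2 in 49.2% of ESC and 49.7% of NSC genes. The share of genes at least 2-fold lower in h7 was 1.6% in ESCs and 1.82% in NSCs, and the share at least 2-fold higher 1.14% and 1.32%. Among 44 imprinted genes tested over both cell types, Grb10 was the 1 gene called.

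**Figure D4:**
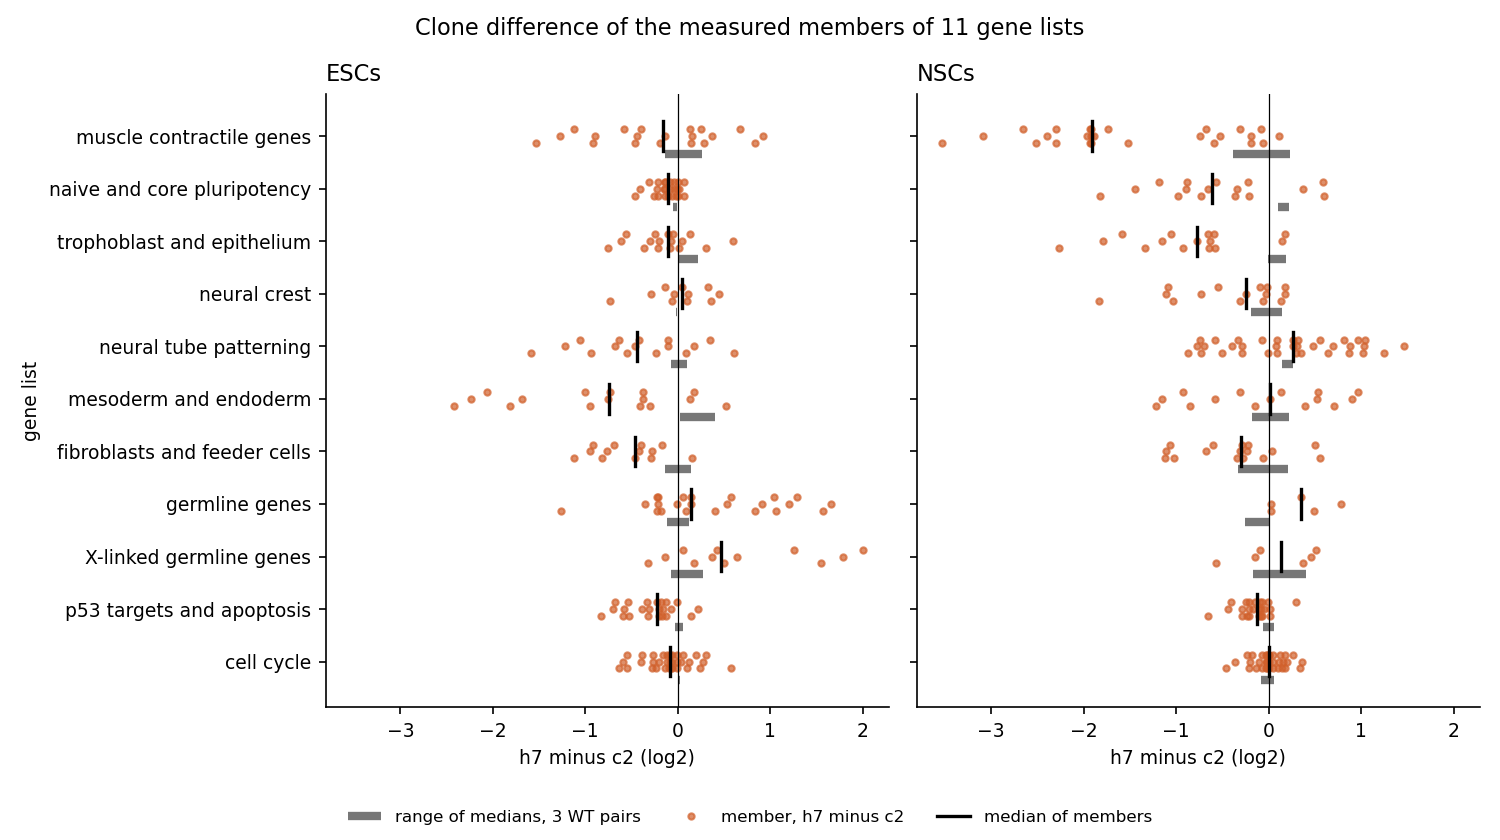
Log2 difference of h7 minus c2 of each measured member (points) of 11 gene lists, with the median of members (black line) and the range of the medians of the 3 WT pairs (grey bar). The muscle list in NSCs stands at a median of -1.90, and the WT pairs at -0.39 to 0.23.

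Genes of the contractile apparatus of muscle were higher in c2 NSCs. This list was added after values were seen. Of 26 measured members, 16 were at least 2-fold lower in h7 NSCs and none was higher, with a median of -1.90, against -0.39 to 0.23 for the WT pairs, which had 3 to 6 members 2-fold apart. In ESCs 3 of 20 members were at least 2-fold lower, with a median of -0.16. Myh3, the embryonic myosin heavy chain, was higher in h7 ESCs, with 482 in c2 and 917 in h7 (WT 181 to 229). In NSCs Myh3 had 54.8, 110.4 and 58.3 in WT, 1849 in c2 and 349 in h7. Acta1, skeletal actin, had 41.3, 43.3 and 31.1 in WT, 356 in c2 and 41 in h7. Actc1, cardiac actin, had 49.6, 113 and 87.4 in WT, 1172 in c2 and 306 in h7. Clone c2 was above all WT libraries in each case, and h7 within the WT range for Acta1 and above it for the other 2. Acta1, Des, Tnnt2 and the myosin gene Myl1 reached the minimum mean in NSCs only through c2, so they could count only as lower in h7. The one-sided count of this list was thus in part set by the minimum.

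The muscle determination factors Myod1 and Myog were also highest in c2 NSCs. Myod1 lay below the minimum mean there and could not count. Myog reached it only through c2, so it could count only as lower in h7. Myod1 had 0, 10.8 and 0 in WT NSCs, 132 in c2 and 9.76 in h7, and Myog 2.07, 21.7 and 15.5 in WT, 217 in c2 and 56.6 in h7. The intermediate filament gene Des stood at 538 in c2 and 141 in h7, cardiac troponin T (Tnnt2) at 546 and 110.3, and the fast light chain Mylpf at 727 and 127, against at most 52.7 in any WT NSC library. The summed level of the list ran the other way against WT, at 33314 in c2 and 20218 in h7 against 101940.1 to 138438 in WT, since Acta2 and Tagln, which smooth muscle and many cultured cells express, were high in WT. In a bulk sample, fewer cells of a type and less RNA per cell cannot be told apart. None of the 17 members tested in both cell types passed the clone test.

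Genes of the pluripotent state were also higher in c2 NSCs. Of 16 measured pluripotency genes, 3 were at least 2-fold lower in h7 NSCs, none was higher, and the median was -0.61, against 0.10 to 0.22 in the WT pairs, which had up to 2 members 2-fold apart. Pou5f1 had 280.0, 320.4 and 422 in WT NSCs, 3044 in c2 and 1650.1 in h7. Nanog had 80.6, 32.5 and 97.1 in WT, 509 in c2 and 222 in h7. Lin28a, the RNA-binding regulator of early development, had 217, 201 and 159 in WT, 2489.7 in c2 and 1495 in h7. For these 3 genes both clones lay above the WT range and c2 was the higher. In ESCs the same list had a median of -0.10 and no member 2-fold apart. None passed the clone test. The growth factor gene Gdf3 (209 in c2, 76.1 in h7, at most 4.13 in WT) reached the minimum mean in NSCs only through c2. It could thus count only as lower in h7 in any list that holds it.

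Epithelial and trophoblast genes had a median of -0.78 in NSCs, against -0.0044 to 0.19 in the WT pairs, with 6 of 15 members at least 2-fold lower in h7 and none higher (1 to 3 members that far apart in the WT pairs). The tight junction genes Cldn4 (266 in c2, 87.8 in h7, at most 89.4 in WT) and Cldn6 (817 and 392, at most 352), the splicing factor Esrp1 (235 and 67.3, at most 39) and the keratin Krt15 (314 and 64.4, at most 2.07) were among them, as were Cdh1 and Eomes. Of these genes, Esrp1 and Krt15 reached the minimum mean in NSCs only through c2, so they could count only as lower in h7. The one-sided count of this list was thus in part set by the minimum. In ESCs none of 17 members was 2-fold apart. The Nodal ligand gene (Nodal) and its inhibitor Lefty1 stood at 281 and 115 and at 402 and 148 in c2 and h7 NSCs, with WT at most 41.1 and 80.1. Their whole list of Nodal, BMP and Lefty signalling had 4 of 19 members at least 2-fold lower in h7 NSCs and none higher, but 8 below c2 in all and a median of 0.10, against -0.11 to 0.12 in the WT pairs.

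The list of neural crest and mesenchyme genes had a smaller NSC median, -0.24, with 4 of 15 members at least 2-fold lower in h7. These were the crest factors Tfap2a (879.8 in c2, 246 in h7) and Tfap2b (336 and 155), the neuregulin receptor Erbb3 (184 and 85.9) and the neurotrophin receptor Ngfr (1105 and 539.6). Tfap2a and Tfap2b in h7 were below the WT ranges of 323 to 473 and 261 to 408. The mesenchymal factor Twist1 was above WT in both clones, 7150.4 in c2 and 7876 in h7, against 3199 to 3531.

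Regional patterning genes of the neural tube had 5 of 35 members at least 2-fold higher in h7 NSCs and none lower, with a median of 0.27, against 0.14 to 0.26 in the WT pairs. Beside Shh and Nkx2-2 these were the midbrain factors En1 (467 in c2, 947 in h7, WT 674 to 953) and En2 (280.1 and 577, WT 395 to 577) and the homeobox gene Msx2 (38.6 and 92.7, WT 114 to 189). The WT pairs had up to 6 members that far apart. In ESCs the direction was the opposite. There 3 of 16 members were at least 2-fold lower in h7, none was higher and 12 were below c2. The ESC median was -0.44, against -0.07 to 0.10 in the WT pairs, which had up to 2 members 2-fold apart. Neural stem cell and radial glia genes showed little difference, with a median of 0.13 and 1 of 27 members, Pax6, 2-fold apart. The list of neurons had an NSC median of 0.08, with 1 of 19 members at least 2-fold higher and 2 lower in h7, and up to 1 that far apart in the WT pairs. In ESCs its median was 0.39, against -0.09 to -0.02 in the WT pairs. There 2 of 12 neuron genes were below c2, 2 were at least 2-fold higher in h7 and none was lower by that much. The WT pairs had up to 2 that far apart. The list of astroglia and oligodendroglia had a median of 0.02, with 3 of 20 members at least 2-fold higher (Sparcl1, Fgfr3 and Nkx2-2) and 1, Olig2, lower, and none that far apart in any WT pair.

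In ESCs, genes of the primitive streak and early mesoderm and endoderm were lower in h7. Of 16 measured members 6 were at least 2-fold lower and none was higher, with a median of -0.75, against 0.02 to 0.40 in the WT pairs, which had 1 to 4 members 2-fold apart. T (Brachyury), the primitive streak factor, had 704, 1049.6 and 838 in WT, 574 in c2 and 136 in h7. Gsc, an organizer factor, had 59.1, 169 and 248 in WT, 70.2 in c2 and 21.1 in h7. Lhx1, another factor of the organizer, had 100.1, 185 and 276 in WT, 56.6 in c2 and 15.4 in h7. Both genes spread widely among the WT libraries themselves, and h7 was below all of them.

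Fgf8, a signal of the same stage, and the factor Eomes were also lower in h7 than in c2. The signals Lefty1 (-0.05) and Lefty2 (0.18) hardly differed. Fgf8 had 712, 909 and 866 in WT ESCs, 198 in c2 and 84.6 in h7, and Eomes 893, 1182 and 1099 in WT, 482 in c2 and 284 in h7. Of 19 genes of Nodal, BMP and Lefty signalling, 4 were at least 2-fold lower in h7 ESCs and none higher, among them Cer1, the activin subunit Inhba (262 in c2, 111 in h7) and the BMP inhibitor Chrd (195 and 92.3). The list's median was -0.32, and 0.06 to 0.16 in the WT pairs. T, Fgf8 and Eomes did not pass the clone test.

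Fibroblast and feeder cell markers were lower in h7 ESCs too. Of 13 measured members 12 were lower in h7 and the median was -0.47, against -0.14 to 0.14 in the WT pairs. Their summed level was 14270 in c2, 9178 in h7 and 10405 to 11879.9 in WT. The collagen gene Col1a1 had 2999, 3263 and 2679.7 in WT ESCs, 4374 in c2 and 2269 in h7, and Col1a2 1797, 1976 and 1641 in WT, 2509 in c2 and 1480.0 in h7. Thy1 stood at 847 and 939.9, and Lum was near 0 in all 5 libraries, at most 16.1. The part of these cells in the ESC differences of T, Acta2, Tpm2 and other genes was not tested. In NSCs 4 of 16 members were at least 2-fold lower in h7 and none was higher, with none that far apart in any WT pair. There 13 of 16 were below c2 and the median was -0.30, with WT pairs at -0.33 to 0.21. The summed level was 189664 in c2 and 155984 in h7 NSCs, against 159451 to 205369 in WT. The part of these cells in the NSC differences was not tested.

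Germline genes differed in the opposite direction in ESCs. Of 23 measured genes silenced by promoter methylation in the body's cells, 6 were at least 2-fold higher and 1 was lower in h7, with a median of 0.14 (WT pairs -0.12 to 0.12, and up to 3 members 2-fold apart). Cyct, the testis cytochrome c, had 227, 211 and 259 in WT, 614 in c2 and 1409 in h7. The RNA-binding gene Dazl had 185, 193 and 143 in WT, 218 in c2 and 451 in h7. Smc1b, the meiotic cohesin, stood at 115 in c2 and 364 in h7, and the helicase gene D1Pas1 at 565 and 234 was the lower one. The germline gene Ldhc (62.9 in c2, 133 in h7) reached the minimum mean in ESCs only through h7. It could thus count only as higher in h7. Tex19.1, on chromosome 11, had 1152, 1739 and 1973 in WT, 3975 in c2 and 7104 in h7, at 0.84 short of 2-fold.

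X-linked germline genes had 4 of 12 members at least 2-fold higher in h7 ESCs, none lower, and a median of 0.46, against -0.07 to 0.27 in the WT pairs, which had 1 or 2 members 2-fold apart. Usp26, a testis ubiquitin protease gene, had 105, 142 and 136 in WT, 496 in c2 and 1447 in h7. Pnma5 had 174, 245 and 235 in WT, 879 in c2 and 2106 in h7. In both genes the order was WT, c2, h7 with no overlap, and in NSCs the clones were alike, 47.8 and 53.7 for Usp26 and 55.1 and 64.4 for Pnma5, with WT listed at 0. Xlr3a (79.6 and 323) and Xlr3b (60.8 and 211) were the other 2, and as near-identical copies their reads may be divided uncertainly between them. Both reached the minimum mean of 50 in ESCs only through h7, so they could count only as higher in h7.

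Imprinted genes as a class showed no common shift between the clones. Of 47 measured in ESCs 3 were at least 2-fold lower in h7 and none higher, with a median of 0.0047. The members were Grb10, the thyroid hormone deiodinase Dio3 (109 in c2, 44.2 in h7) and the zinc finger gene Zim1 (60.8 and 23.1). Of 52 in NSCs 3 were lower and none higher, with a median of -0.01, these being Grb10, Igf2r and H19. Igf2, the growth factor encoded beside H19, stood at 2841 in c2 and 2449 in h7 NSCs, both above its WT range of 644 to 1093. Lists of DNA methylation machinery, MHC class I and interferon response, cell cycle and the Notch pathway had medians between -0.08 and 0.07 in both cell types, and none of their members passed the clone test. Not all of these medians lay within the WT pairs. The cell cycle list in ESCs stood at -0.08, with 25 of 34 members below c2 and the WT pairs at 0.01 to 0.02.

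Chromosome 11 separated the clones in ESCs. Over its 992 tested genes the median difference from the WT mean was 0.25 in c2 and 0.52 in h7 ESCs, and 0.54 in both clones as NSCs. The median of h7 minus c2 was 0.27 in ESCs, with h7 higher in 86.2% of genes, and -0.00032 in NSCs, with h7 higher in 49.9%. All 7 windows of 20 Mb had an ESC median between 0.22 and 0.35, while each WT library against the mean of the others stood between -0.03 and 0.02 over the chromosome. Of its genes with the highest level, Npm1 had 180738, 191005 and 181113 in WT ESCs, 202425 in c2 and 235128 in h7. The translation factor gene Eif4a1 had 105757, 111736 and 112157 in WT, 132722 in c2 and 153045 in h7. Ppia had 88102 to 91538 in WT, 106404 in c2 and 119754 in h7. In each of these c2 lay between WT and h7.

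**Figure D5:**
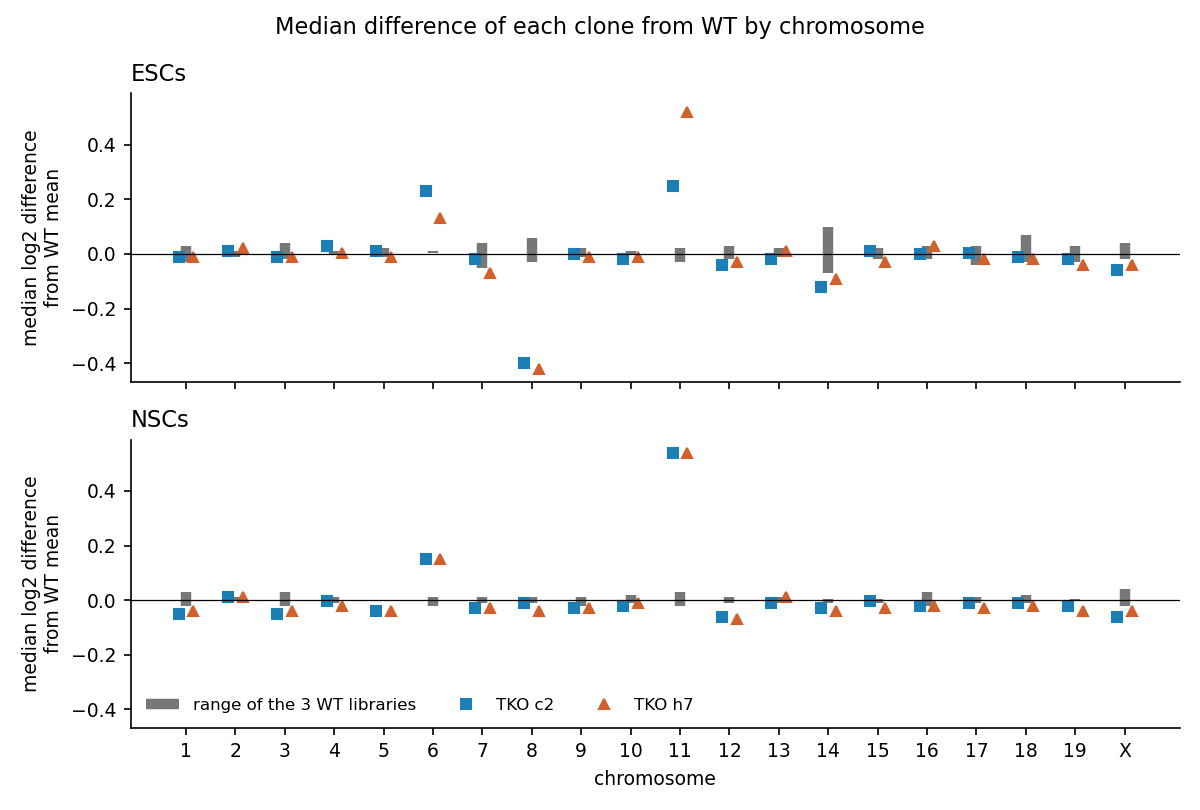
Median log2 difference of each clone from the WT mean over the tested genes of each chromosome, with the range of the 3 WT libraries (each against the mean of the other 2) as grey bars. On chromosome 11 the clones are apart in ESCs (0.25 and 0.52) and together in NSCs (0.54 and 0.54).

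Chromosome 6 differed in part. From 100 Mb to its end both clones stood at 0.45 to 0.59 above WT in ESCs and at 0.49 to 0.64 in NSCs, window by window. Between 80 and 100 Mb, 113 genes had an ESC median of 0.11 in c2 and -0.15 in h7, a difference of -0.20, with h7 higher in 18.6%. In NSCs that window stood at -0.05 and -0.02. Of its abundant genes, Cct7 had 36935, 38397 and 39947 in WT ESCs, 39257 in c2 and 33020.0 in h7, and the RNA-binding Pcbp1 28566, 30946 and 31659 in WT, 28432 in c2 and 22750.2 in h7. Bcat1 lies in the last window of the chromosome, where the median of h7 minus c2 was -0.14 in ESCs and 0.03 in NSCs.

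Chromosome 8 stood at -0.40 and -0.42 in c2 and h7 ESCs and at -0.01 and -0.04 in NSCs, so that it did not separate the clones. The 3 tested Y-linked genes, Ddx3y, Eif2s3y and Uty, were higher in h7 ESCs, with a median of 0.64, and not in NSCs, with a median of -0.13. Uty stood at 229, 214 and 251 in WT ESCs, 188 in c2 and 337 in h7. No other autosome had a median of h7 minus c2 beyond 0.04 in either direction. The number of chromosome copies was not measured, and the genes of chromosome 11 include Grb10, whose difference is opposite in sign to that of its chromosome.

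Most p53 target and apoptosis genes were slightly lower in h7 in both cell types. In ESCs 21 of 23 members were below c2, with a median of -0.22 (WT pairs -0.03 to 0.06), and in NSCs 21 of 24, with a median of -0.13 (WT pairs -0.06 to 0.06). Cdkn1a, the cell cycle inhibitor p21, had 1747, 2080.0 and 2071 in WT ESCs, 2601 in c2 and 1727 in h7. Phlda3, a repressor of Akt, had 1885, 1723 and 2036 in WT ESCs, 2465 in c2 and 1542 in h7. In both, c2 was above and h7 below every WT library. The desmosome-linked Perp came nearest to the threshold, with a common difference of -0.74 and a limma adjusted p of 0.106, and no member was 2-fold apart. Immediate early and RNA handling genes, which respond to how cells are harvested, had medians of -0.17 and -0.20 in ESCs and NSCs, with WT pairs at -0.03 to 0.08 and -0.12 to 0.10, and what moved the p53 genes with them was not tested.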

How the data were processed

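RNA-seq of 10 mouse libraries was used. The submitters' processing notes list DESeq2 1.40.2, featureCounts, STAR 2.7.3a and Trim Galore 0.6.5 among the tools and mm10 as the build. No source used here gives the strand setting or annotation, so overlapping genes may share reads. The deposited values are a signal, namely read counts that the authors scaled by DESeq2 size factors, separately for ESCs and NSCs. All values came out as whole reads within 1e-06, and 75.2% to 82.7% of values up to 20 were even, as when both mates of a pair are counted. 0 columns were left unused.

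log2(value + 1) of the 12077 genes with a mean of at least 50 in both tables was fitted with limma 3.58.1 (R 4.3.3, trend, two-sided): a mean per cell type for WT and for the knockout and 1 common h7 minus c2 term, with 5 residual degrees of freedom; a second fit gave each knockout library its own term. edgeR 4.0.16 and DESeq2 1.42.0 were run on recovered reads as alternatives. The scripts were tested on simulated data. Differences within a table, chromosomes and lists are descriptions. The minimum mean counted the clones' own libraries, so a list member high in 1 clone could pass through that library. Positions are those of RefSeq GRCm38.p6 (98.3% of tested genes). By the codes in the labels, same-numbered WT libraries of ESCs and NSCs are of the same line (w1, w2 and w3), though they did not deviate together in every pair. The fit reported has no block for the line, and blocked values stand where they change a call. Lines are independent per the labels, with 1 library per line and cell type; p-values measure the spread between these libraries.

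Named were Tet1 to Tet3, the called genes, the most abundant genes of regions that stood apart, and examples from lists and from the complete set of 25 NSC genes, partly chosen after their values were seen. The clones and lists were chosen with earlier results of these data known. 1 called gene is not reported here. The loop, bisulfite and CUT&Tag samples were not used here.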

Additional observations from a re-analysis of the deposited data

Results flagged for a closer look

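For 7 genes the difference between the clones was itself different in ESCs and NSCs by the test of the difference of differences (h7 minus c2 in NSCs, minus the same in ESCs, log2 scale, limma), which assumes that each clone's single library per cell type varies like the WT libraries. The values were -1.89 for Tdgf1, -1.79 for Grb10, -1.43 for Spp1, -1.35 for Cdh1 and -1.22 for Igf2r, all lower in NSCs, and 1.75 for Zfp362 and 2.70 for Cyp1b1. At an unadjusted p under 0.05 there were 883 genes. The test for a sample far from the others was not applied, since the groups hold 3 and 2 libraries.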

How the results depend on the processing

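The number of genes called between the clones was 3, and 3 or 2 or 4 with a pseudocount of 0.5, a lower or no minimum, equal library totals or edgeR. It was 7 with a pseudocount of 4, 1 with chromosomes centred, 1 with a robust fit, 81 with DESeq2 and 9 on the 4 knockout libraries alone. Leaving out each library in turn gave 2 to 37 genes. Grb10 was lost in 1 and Bcat1 in 3 of 21 alternatives. For the difference between cell types, 7 genes became 2 with a mean of at least 10 or with no minimum, 11 with a robust fit, 14 with edgeR and 80 with DESeq2, and 3 to 43 with 1 WT library left out. With the WT number as a replicate block, 4 genes were called between the clones (2 of them among the 3) and 4 between cell types (3 of them among the 7). The block ended the calls between cell types of Zfp362, Igf2r, Cdh1 and Cyp1b1. The number of genes at least 2-fold apart fell from 356 to 45 in ESCs and from 444 to 122 in NSCs at a mean of at least 200, by fewer genes counted. Chosen after seeing the data, means of 200 to under 1000 gave 44 and 97, and 1000 or more gave 1 and 25. The chromosome 6 median in ESCs was -0.07 with equal totals, against -0.08, and the chromosome 11 median kept its sign. Among the 104 genes followed singly, no difference changed sign with a call, and of the fits of single genes 61 gained and 17 lost a call for the clones, and 31 lost one between cell types. The cause of these changes was not tested. Precision was lowest under a mean of 200, where 8.44% to 11.9% of genes in ESCs and 7.79% to 11% in NSCs were 2-fold apart between WT libraries.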
